A study of Mus musculus with 12 samples.

Results

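Cytosolic ribosomal proteins are the protein subunits of the ribosome that translates nuclear mRNAs. They were taken as every gene of the deposited liver expression table whose symbol is Rpl or Rps followed by a number, with an optional paralog letter, or one of Rplp0, Rplp1 and Rplp2. That rule gave 80 genes of 12284, of which 49 belong to the large subunit and 31 to the small subunit. The rule used symbols only and no measured value. All 80 had a mean of at least 1 log2 CPM (CPM is a read count scaled to the size of its library). None stood at the table's lowest value in any library. The table was filtered before deposit, so members that the filter removed cannot be seen. Rps12, which fits the rule, has no row.

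Polyadenylated RNA was sequenced from whole liver of 12 mice carrying floxed alleles of both Acly and Acss2, the genes for 2 enzymes that make acetyl-CoA outside mitochondria. The 6 DKO mice received AAV8-TBG-Cre, a virus that expresses Cre recombinase from a hepatocyte promoter, so that cells other than hepatocytes are not the target of the deletion. The 6 WT mice had the same floxed alleles and received AAV8-TBG-GFP. Both groups were injected at 6 to 8 weeks of age and were fed a Teklad Western diet for 6 weeks from 1 week after injection. The study asked how losing both enzymes alters the liver under this diet, and the comparison here is of DKO with WT livers.

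A ribosome holds 1 copy of nearly every ribosomal protein, so cells make these proteins in balanced amounts and degrade the excess. In vertebrates their mRNAs begin with a cytosine followed by a run of pyrimidines, the 5′ terminal oligopyrimidine or TOP motif, through which the mTORC1 kinase and the RNA-binding protein LARP1 set their translation and stability according to nutrients. The liver, which secretes most plasma proteins, uses a large pool of ribosomes.

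Start sequences are shown for Rps26, Rps7 and Rps24, 3 of the 4 members with the lowest p-values, for the 2 with the largest negative differences, and for Rps6, the substrate of S6 kinase. They run from 15 bases before the RefSeq transcription start to 15 bases from it onward (GRCm38.p6). Where a gene had several RefSeq starts, the one with the longest run of C and T was taken. Capitals mark that run, or the first of equal ones, and it can continue past the bases shown.
Rps26, chr10:128626492-128626521, minus strand: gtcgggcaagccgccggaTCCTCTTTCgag
Rps7, chr12:28635939-28635968, minus strand: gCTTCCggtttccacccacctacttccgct
Rps24, chr14:24490663-24490692, plus strand: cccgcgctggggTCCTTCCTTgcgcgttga
Rps6, chr4:86857353-86857382, minus strand: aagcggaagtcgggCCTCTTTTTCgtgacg
Rpl13a, chr7:45128731-45128760, minus strand: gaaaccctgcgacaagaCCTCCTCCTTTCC
Rpl10, chrX:74270801-74270830, plus strand: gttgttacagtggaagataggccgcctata
The runs in Rps6 and Rps24 reach across the annotated start. In Rps7 the marked run of 5 bases is the first of several equally long. In Rpl10 the longest run was 4 bases long and lies before the bases shown, hence no capitals.

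RefSeq start windows were found for 59 of the 80 members. A run of at least 7 pyrimidines on the gene's own strand, within 25 bases of the start, was present in 61.0% of them, against 32.7% of all 27025 genes with a window. The letters CTTTC, which can lie inside such a run, occurred on that strand in the same bases in 30.5% of members and 7.87% of all genes. The letters CCGGAAG, the core bound by ETS-type factors, occurred on either strand of the 300-base window in 40.7% of members and 9.93% of all genes. These are matches of letters at annotated starts, and the TOP motif depends on the exact start used in liver, which was not measured.

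No ribosomal protein gene passed the test between DKO and WT livers. Of the 80 genes, 0 rose and 0 fell at an adjusted p below 0.05 (limma, Benjamini-Hochberg over all 12284 genes), where 1.74% of all genes were called, 76 of them higher and 138 lower. At an unadjusted limma p below 0.05 there were 4 of 80 members, or 5%, against 16.4% of all genes. No member had groups that did not overlap, against 2.17% of all genes. An exact permutation test over every possible split of the 12 libraries also gave 4 members at an unadjusted p below 0.05, with 0.00433 the lowest among them, and called 0 genes of the whole table after adjustment, with 1996 at an unadjusted p below 0.05 and 0.00216 the smallest p the design allows.

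The differences were small as well as uncalled. The median log2 fold change (DKO minus WT) was 0.01 over the members, 0.00 over all genes and -0.05 over 2647 genes of like level. The latter are the other genes whose mean level lay between the 10th and 90th percentile of the members' levels. The median size of the difference, regardless of sign, was 0.05 over members, 0.16 over all genes and 0.12 over the genes of like level. The difference was smaller than 0.1 for 58 members and smaller than 0.2 for 73, and it was largest for Rpl29. The 95% interval lay wholly within a 1.5-fold change in either direction for 76 of the 80 members (95%), against 56.6% of all genes and 84.1% of the genes of like level.

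**Figure D1:**
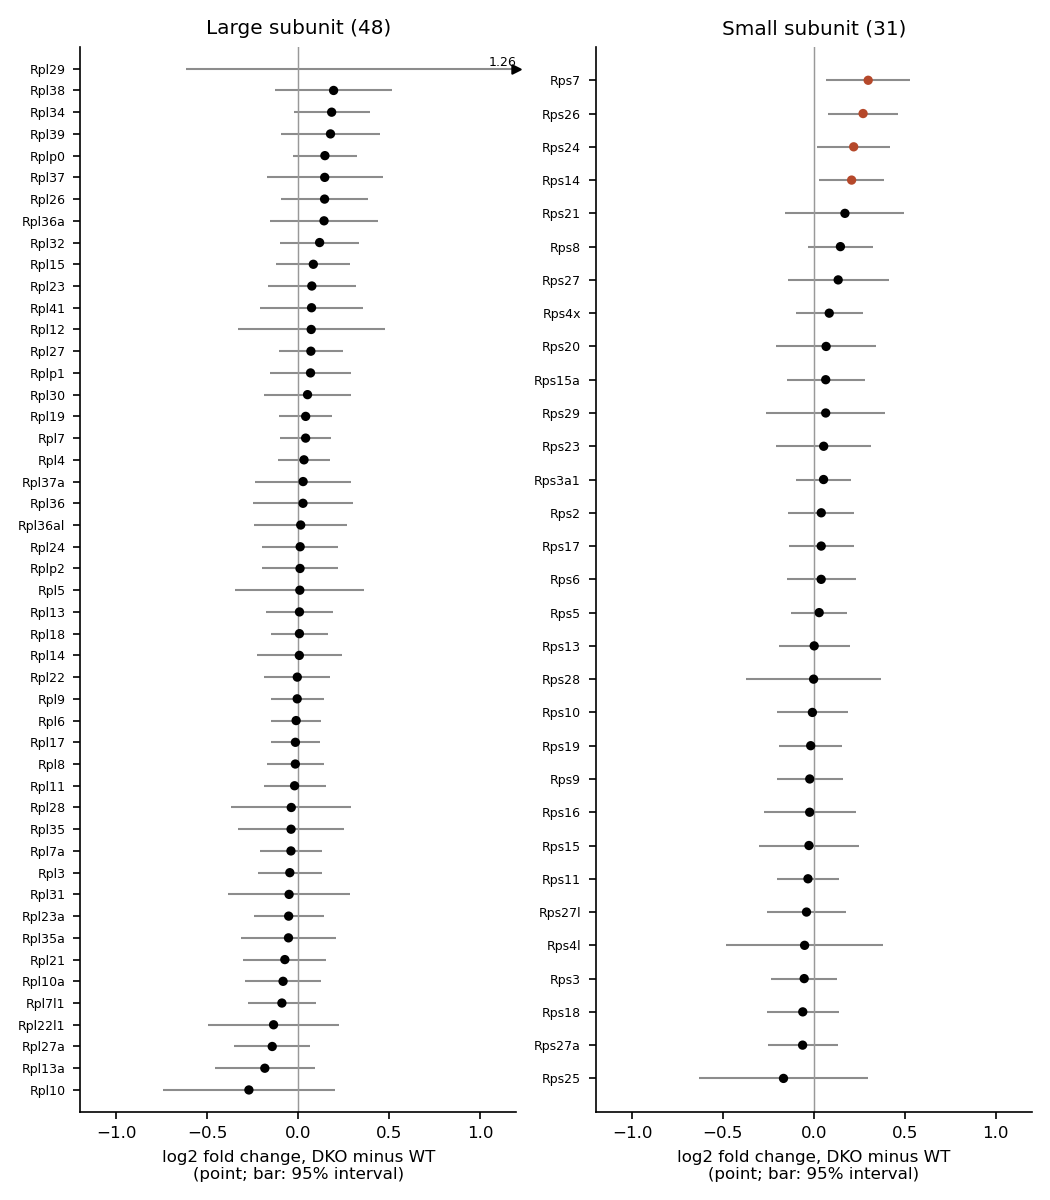
Log2 fold change, DKO minus WT, of 48 of the large-subunit genes (left) and the 31 small-subunit genes (right), with limma's 95% interval from 6 libraries a group. Points lie close to 0 except Rpl29 at 1.26, drawn at the axis end with its interval shortened to the axis, and red points mark the 4 genes at an unadjusted p below 0.05.

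The direction of these small differences was not settled. As deposited, 47 members had a higher mean in DKO livers and 33 a lower one. The mean was higher for 50.8% of all genes and 37.6% of the genes of like level. With the median of each library subtracted the split was 39 higher and 41 lower. It was 71 and 9 after quantile normalization and 72 and 8 when each library was scaled to its sum without the members. The last scaling also moved the median over all genes by 0.066, to 0.07, and 62.3% of all genes were then higher. The members hold 0.871% to 1.16% of a library's CPM, so it was close to scaling to whole library sums. Those sums averaged 970390 in DKO livers and 1013370 in WT livers. As deposited but without the WT 3 library, 27 members were higher. The sign of 26 members differed from the deposited one after quantile normalization, of 25 with library sums without the members and of 8 with library medians subtracted, and none of these was among the 4 at an unadjusted p below 0.05. No member was called under any of these settings.

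Library by library, the mean level of the 80 members was 6.57, 6.57, 6.49, 6.68, 6.67 and 6.65 log2 CPM in DKO livers 1 to 6, and 6.84, 6.41, 6.33, 6.53, 6.69 and 6.56 log2 CPM in WT livers 1 to 6. The groups overlapped, and the highest as well as the lowest library was a WT one. The means were 6.61 ± 0.08 log2 CPM in DKO livers and 6.56 ± 0.19 log2 CPM in WT livers (SD, n = 6 each). The members together took 1.06 ± 0.08% of the summed CPM of a library in DKO livers and 0.983 ± 0.085% in WT livers, with ranges of 0.942% to 1.16% in DKO livers and 0.871% to 1.12% in WT livers. CPM is a share of each library, so a change of all ribosomal protein mRNA per cell would not be seen if all other mRNA changed alike, and in whole liver a change in the mix of cells cannot be told apart from one within cells.

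The P stalk is the flexible arm of the large subunit that draws in the translation factors that use GTP. It consists of Rplp0 with the paired proteins Rplp1 and Rplp2, and sits on a base that includes Rpl12. The lowest, median and highest values of Rplp0 were 8.47, 8.48 and 8.68 log2 CPM in DKO livers and 8.16, 8.34 and 8.66 log2 CPM in WT livers. Its DKO minus WT difference of 0.15 (SE 0.08) came with an adjusted p of 0.397 in limma. All 4 stalk genes had a higher mean in DKO livers (3 of 4 with library medians subtracted) and none was called, with 0.07 for Rplp1, 0.01 for Rplp2 and 0.07 for Rpl12.

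Rpl5 and Rpl11 bind the 5S rRNA, and when free they also bind MDM2, the ligase that keeps p53 low. Their log2 fold changes were 0.01 for Rpl5 and -0.02 for Rpl11. Rpl11 ranged over 6.96 to 7.11 log2 CPM in DKO livers and 6.78 to 7.27 log2 CPM in WT livers, so the DKO values lay inside the WT range.

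Rpl3, Rpl4 and Rpl8 build the core around the peptidyl transferase centre, and Rpl10 joins it last during maturation. The log2 fold change was -0.05 for Rpl3 and 0.03 for Rpl4. Rpl10 had the largest negative difference of all members. Its values were 5.36, 5.31, 5.41, 6.39, 5.44 and 5.79 log2 CPM in DKO livers and 5.90, 5.93, 6.53, 5.83, 6.04 and 5.11 log2 CPM in WT livers. DKO 4 stood among the highest libraries and WT 6 was the lowest of all, so the groups overlapped widely. The difference was -0.27 (SE 0.22, limma adjusted p 0.593).

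Around the exit of the peptide tunnel sit 8 members, of which 3 were higher and 5 lower in DKO livers as deposited, 7 and 1 after quantile normalization and 8 and 0 with library sums without the members, none called. Rpl23a, a docking site for the signal recognition particle, differed by -0.05, and Rpl35, which lies beside it, by -0.04. Rpl17 differed by -0.02 and Rpl22, which also binds RNA away from the ribosome, by -0.0050. Rpl39, a small protein inside the tunnel, differed by 0.18 (SE 0.13, limma adjusted p 0.525).

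Rpl13a, which in human myeloid cells leaves the ribosome to silence inflammatory mRNAs, differed by -0.18 (SE 0.13, limma adjusted p 0.514). Its lowest, median and highest values were 6.39, 6.94 and 7.23 log2 CPM in DKO livers and 6.87, 7.09 and 7.26 log2 CPM in WT livers. DKO 3 held the lowest value.

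The 4 genes at an unadjusted p below 0.05 all belong to the small subunit, where they made 4 of 31, or 12.9%, against 16.4% of all genes. All 4 had a higher mean in DKO livers. Rps26 lies at the mRNA exit channel and contacts the message just before the start codon. It had 6.99, 7.10, 7.18, 7.03, 7.08 and 7.08 log2 CPM in DKO livers, against 7.01, 6.65, 6.52, 6.71, 6.96 and 6.98 log2 CPM in WT livers. Every DKO library but the first lay above every WT library, and DKO 1 lay below WT 1. The difference was 0.27 (SE 0.09), a fold of 1.21, with a limma adjusted p of 0.142 and an exact permutation p of 0.00433 before adjustment.

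Rps7, a solvent-side protein that binds MDM2 when free, had 7.62, 7.44, 7.52, 7.18, 7.40 and 7.39 log2 CPM in DKO livers, against 7.37, 7.01, 6.83, 6.92, 7.32 and 7.29 log2 CPM in WT livers. DKO 4 lay among the WT values. The difference was 0.30 (SE 0.11, limma adjusted p 0.171). Rps14, a neighbour of Rps26 at the exit channel, averaged 7.65 ± 0.11 log2 CPM in DKO livers and 7.44 ± 0.16 log2 CPM in WT livers (SD, n = 6 each; limma adjusted p 0.229). Rps24, one of the genes mutated in Diamond-Blackfan anaemia, averaged 6.30 ± 0.07 log2 CPM in DKO livers and 6.08 ± 0.21 log2 CPM in WT livers (SD, n = 6 each; limma adjusted p 0.257). In WT 1 all 4 genes stood within the DKO range, and in WT 2 to WT 4 they were lower than in any DKO library.

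Other small-subunit members with well-known roles showed less. Rps6, whose phosphorylation is a common readout of mTORC1, had lowest, median and highest values of 7.98, 8.10 and 8.14 log2 CPM in DKO livers and 7.90, 8.01 and 8.45 log2 CPM in WT livers. Its difference was 0.04 (SE 0.09), with a 95% interval of -0.15 to 0.23. Rps2 and Rps3, which line the channel where mRNA enters, differed by 0.04 and -0.05. Rps19, the most frequently mutated gene in Diamond-Blackfan anaemia, differed by -0.02, and the X-linked Rps4x by 0.08.

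Rps27a is made as a fusion with ubiquitin and differed by -0.06. Rps27 and Rps29, which hold zinc, differed by 0.13 and 0.07. Rps25, which is needed for initiation at some viral internal entry sites, differed by -0.17 (SE 0.22), with 2.56, 3.16 and 4.06 log2 CPM as lowest, median and highest in DKO livers and 3.09, 3.30 and 3.91 log2 CPM in WT livers.

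5 members have symbols that mark them as paralogs of another member, and 1 of these, Rps4l, is a transcribed processed pseudogene in the GENCODE annotation. As deposited 4 of the 5 were lower in DKO livers, against 3 after quantile normalization and 2 with library sums without the members, none called. Rpl22l1, which can replace Rpl22, differed by -0.14 (SE 0.17), and its lowest, median and highest values were 3.12, 3.65 and 3.99 log2 CPM in DKO livers and 3.27, 3.77 and 3.88 log2 CPM in WT livers. Rpl7l1 differed by -0.09, Rps27l, a p53 target, by -0.04, and Rps4l by -0.05. Rpl36al differed by 0.01 and Rpl36a by 0.14. Per length of coding sequence, Rpl7 and Rpl22 were more abundant than Rpl7l1 and Rpl22l1, while Rpl36al and Rps27l were more abundant than Rpl36a and Rps27.

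Levels of different members were compared as CPM per kilobase of annotated coding sequence, which 79 members have. The isoform marked as principal was preferred, and the longest was taken otherwise. Untranslated parts of an mRNA also give reads but are not in this length, so members with short coding sequences can come out too high. The median was 249 CPM per coding kilobase. Rpl41, the smallest ribosomal protein, was highest at 1421, followed by Rplp1 at 746 and Rps2 at 551. Among those at the low end were Rpl12 at 16.3, Rpl5 at 20.1, Rps25 at 26.9 and Rpl22l1 at 34.4. Since each ribosome needs Rpl5 and Rpl12 as much as the other members, the table was searched for rows with the same sequence.

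Ribosomal protein genes have many processed pseudogenes, copies made by reverse transcription of their mRNAs. A read of a stretch that 2 genes share cannot be given to one of them from its sequence alone. Of the 79 members with an annotated coding sequence, 30 shared every 31-base stretch of it with another annotated transcript and 55 shared at least 90%. Among the deposited values are 16 rows annotated or named as pseudogenes or retrocopies that share more than 50% of the coding stretches of a member, and they belong to 13 members. Another 6 rows, annotated as protein-coding genes, share as much with 5 members (Rpl21, Rpl29, Rplp2, Rps23 and Rps26, with 52.1% for the last) and were not summed with them. Values of all these members and of the rows they share with are therefore uncertain 1 by 1.

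The copies are shown by 60 coding bases for the 4 members where the sharing matters most. Rpl29 lies on chromosome 9 and its copy Gm8210 on chromosome 1, and their coding sequences are 99.38% identical, with 3 differences in 480 bases. The stretch covers coding bases 52 to 111 and the capital marks the base that differs.
Rpl29: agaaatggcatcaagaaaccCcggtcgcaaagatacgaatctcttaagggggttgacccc
Gm8210: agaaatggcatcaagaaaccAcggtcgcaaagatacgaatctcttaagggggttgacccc
Rpl10 on chromosome X and Rpl10-ps3 on chromosome 9 are identical over all 642 coding bases, Rpl5 on chromosome 5 and Gm15500 on chromosome 7 over 891, and Rpl12 on chromosome 2 and Gm10275 on chromosome 10 over 495. The first 60 bases of each are the same in gene and copy.
Rpl10 and Rpl10-ps3: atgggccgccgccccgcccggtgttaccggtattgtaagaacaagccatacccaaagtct
Rpl5 and Gm15500: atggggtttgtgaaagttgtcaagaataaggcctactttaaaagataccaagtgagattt
Rpl12 and Gm10275: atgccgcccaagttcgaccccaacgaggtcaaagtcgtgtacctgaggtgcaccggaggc

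For Rpl10, Rpl5 and Rpl12 most of the CPM stood in the row of the copy and not in that of the parent gene. Rpl10-ps3 averaged 8.27 log2 CPM in DKO livers and 8.39 log2 CPM in WT livers, above Rpl10 at 5.62 and 5.89. Gm15500 averaged 7.64 and 7.52 log2 CPM in DKO and WT livers, and Gm10275 7.16 and 6.93. Rpl10 held 14.8% of the CPM of gene and copy together, Rpl5 8.51%, Rpl12 5.72% and Rpl27a, whose copy is Gm7536, 39.6%. Summed with its copy, Rpl5 reached 236 and Rpl12 285 CPM per coding kilobase, beside the median of 249. Rps25 reached 32.2 with its copy.

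Rpl29 was the member with the largest difference and the largest spread. It had 7.04, 7.23, 7.17, 7.20, 7.30 and 6.39 log2 CPM in DKO livers, against 6.45, 0.72, 6.97, 7.12, 6.29 and 7.20 log2 CPM in WT livers. The copies Gm8210 and Gm13841, which have the same value as each other in every library, stood at 3.52 log2 CPM in DKO 6 and at 3.60, 4.47 and 3.39 log2 CPM in WT 1, WT 2 and WT 5, and at the lowest value of the table in the other 8 libraries. The libraries with low Rpl29 were thus the 4 in which these copies stood above the lowest value. The difference of Rpl29 was 1.26 (SE 0.88, limma adjusted p 0.513). Without WT 2 it was 0.25 (adjusted p 0.613), and summed with its copies it was 0.43 (SE 0.23, adjusted p 0.367). The sum was still lowest in WT 2, at 5.53 log2 CPM, against 6.63 to 7.21 log2 CPM in the other WT livers. In DKO 6 it was 6.74 log2 CPM, against 7.17 to 7.30 log2 CPM in the other DKO livers. Uimc1, which shares 78.9% of the coding stretches of Rpl29, was not in the sum.

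The spread of these genes was smaller when each was summed with its copies. The SD pooled over both groups was 0.097 for summed Rpl10, against 0.437 for Rpl10 and 0.169 for Rpl10-ps3 alone. For Rpl29 it was 0.4596 summed and 1.79 alone. For Rpl5 the sum had an SD of 0.110, the gene 0.307 and the copy 0.101, and for Rpl12 the sum had 0.185, the gene 0.337 and the copy 0.183, so that these sums varied much as the copy that makes up most of them. The summed differences were -0.15 for Rpl10 (limma adjusted p 0.306), 0.22 for Rpl12 (0.305) and 0.11 for Rpl5 (0.494), and still no member was called.

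**Figure D2:**
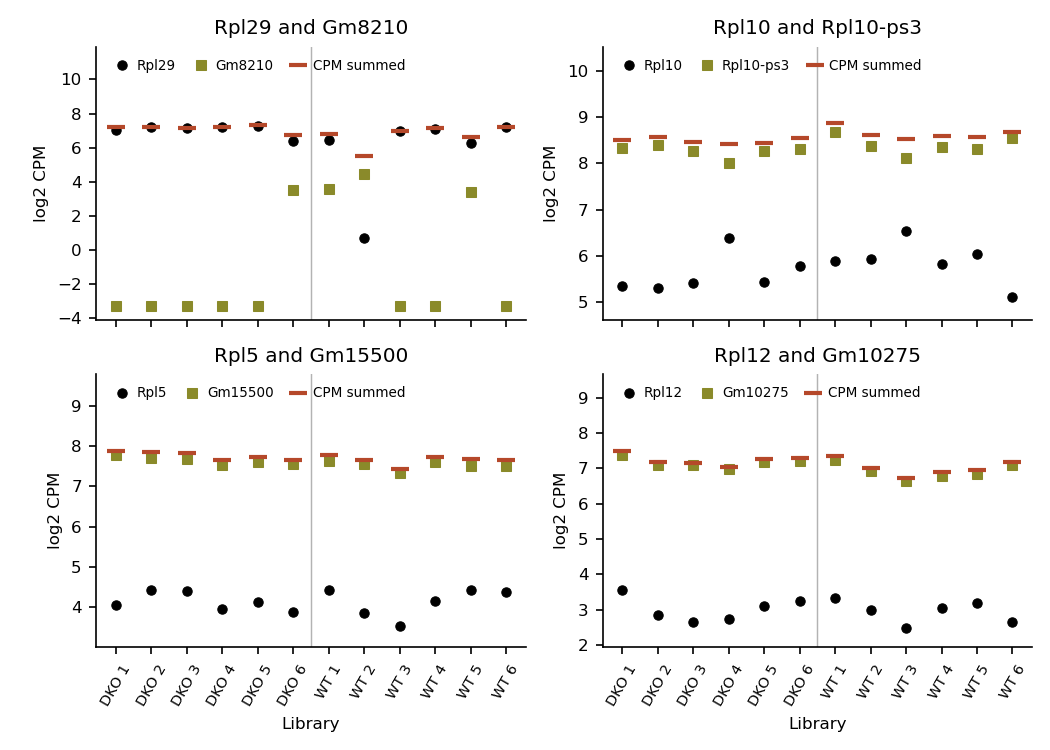
Log2 CPM of Rpl29, Rpl10, Rpl5 and Rpl12 (black), of 1 copy of each (olive) and of the CPM summed over the gene and all its copies in the table (red), in the 6 DKO (left) and 6 WT (right) libraries. Rpl29 is low in DKO 6, WT 1, WT 2 and WT 5, where Gm8210 is above the table's lowest value, and the copies of Rpl10, Rpl5 and Rpl12 lie above their parent genes in every library.

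Over all 12 libraries the members differed between the groups in spread more than in level. Their median SD over 6 libraries was 0.129 log2 CPM in DKO livers and 0.204 log2 CPM in WT livers. The SD was smaller in DKO livers for 70 of 80 members (87.5%), against 43.3% of all genes and 42.3% of the genes of like level, whose median SDs were 0.181 log2 CPM in DKO livers and 0.162 log2 CPM in WT livers. The count depended on WT 1 and WT 3. Without WT 1 the count was 58 of 80, without WT 3 it was 60, and without both it was 37 (46.25%). The share among genes of like level was then 33.1%, 41.7% and 32.4%. Without both, the members' median SD was 0.129 log2 CPM in DKO livers and 0.119 log2 CPM in WT livers. WT 1 and WT 3 hold most of the members' WT extremes, so leaving them out lowers the WT SD by construction. The count was 41 when all libraries were kept and scaled to their sums without the members. No p is attached to these counts, since members share libraries.

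The members moved together within the WT group. WT 1 held the highest WT value for 65 of the 80 members and WT 3 the lowest for 65. In WT 1, 76 members lay above their WT mean, with a median deviation of 0.26, and in WT 3 4 did, with a median deviation of -0.24. Both subunits shared this, at 0.27 (large) and 0.24 (small) in WT 1 and -0.24 for each in WT 3. In DKO livers the median deviations ran from -0.11 in DKO 3 to 0.07 in DKO 5. Of all genes 49.3% to 52.5% lay above their group mean in each library.

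**Figure D3:**
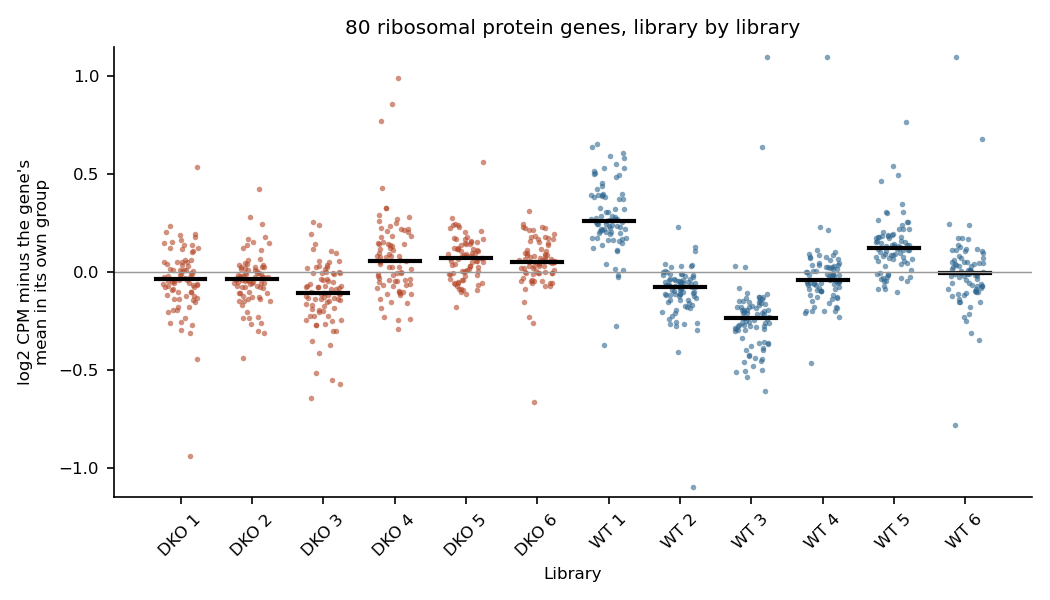
Deviation of each of the 80 ribosomal protein genes from its own group mean, in log2 CPM, in the 6 DKO (red) and 6 WT (blue) libraries, with the median as a black bar and values past the axis drawn at its edge. The WT 1 points lie mostly above 0 (median 0.26) and the WT 3 points mostly below (median -0.24), while the DKO medians stay between -0.11 and 0.07.

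Some other gene groups moved with the members in WT 1 and WT 3. In WT 5 the members deviated by 0.12 (median), and the macrophage markers went the other way. The 723 genes with coding sequences no longer than the members' median of 453 bases deviated by 0.10 in WT 1 and -0.11 in WT 3 (medians), and by 0.13 in WT 5. The nuclear subunits of oxidative phosphorylation deviated by 0.13 in WT 1, -0.19 in WT 3 and 0.22 in WT 5. The 13 measured macrophage markers deviated by 0.60 in WT 1, -0.30 in WT 3 and -0.32 in WT 5. The part of each in the members' spread was not tested.

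**Figure D4:**
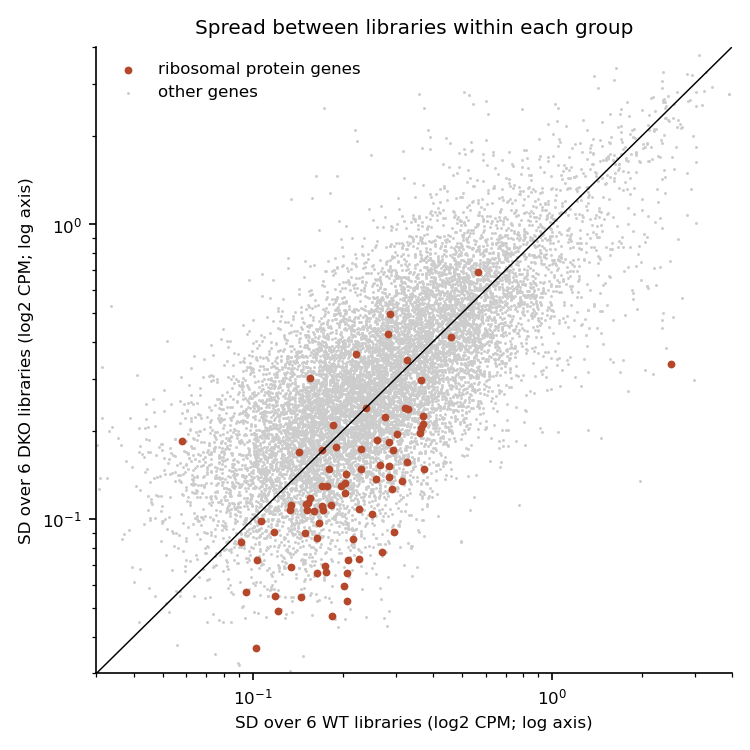
SD of log2 CPM over the 6 DKO libraries (vertical) against the 6 WT libraries (horizontal), both on log axes, for the 80 ribosomal protein genes (red) and all other genes (grey), with the line of equal SD. Of the red points 70 lie below the line, and 37 would without WT 1 and WT 3.

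Of 4 ribosomal proteins whose symbols fall outside the naming rule, 3 were measured, and 0 rose and 0 fell. Rpsa, the small-subunit protein also known as the laminin receptor precursor, differed by 0.22 (limma adjusted p 0.335). Fau, a ubiquitin-like fusion to a small-subunit protein, differed by -0.13. Of the 3, 1 was at an unadjusted limma p below 0.05.

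In the rest of the translation machinery the shares are to be read against 1.74% called and 16.4% at an unadjusted p below 0.05 among all genes. No gene was called among 9 elongation and termination factors (0 at an unadjusted limma p below 0.05), 34 initiation factors (3), 19 measured other TOP mRNAs (3), 66 ribosome biogenesis factors (6), 10 RNA polymerase I genes (0), 19 genes of mTORC1 and LARP1 control (1) and 7 ribosomal protein chaperones (1). Eef1a1, which brings aminoacyl-tRNA to the ribosome, differed by 0.03 and Eef2, which moves the ribosome along the mRNA, by -0.02. Larp1 differed by 0.09, Mtor by 0.04 and Polr1a, the largest subunit of RNA polymerase I, by 0.17. The nucleolar proteins Ncl and Fbl both differed by 0.05.

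Among these 7 lists Heatr1 and Hnrnpa1 came nearest the threshold. Heatr1, needed for pre-rRNA transcription and small-subunit assembly, averaged 4.12 ± 0.32 log2 CPM in DKO livers and 3.56 ± 0.21 log2 CPM in WT livers (SD, n = 6 each; limma adjusted p 0.082, and 0.027 without DKO 6, 0.044 without WT 1). Hnrnpa1, an RNA-binding protein and TOP mRNA, differed by 0.50 (limma adjusted p 0.098). Myc, a transcription factor that drives ribosome production, differed by 0.53 (SE 0.54), with a WT range of 0.86 to 4.77 log2 CPM that enclosed the DKO range of 1.78 to 3.34 log2 CPM.

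The mitochondrial ribosome, built from other genes, gave 0 calls among 76 measured proteins, 13 of them at an unadjusted limma p below 0.05 (17.1%, near the background of 16.4%). Their median difference was -0.08, against 0.01 for the cytosolic members and -0.05 for the other genes of like level to the cytosolic members. Mrpl38 was nearest, at -0.32 (limma adjusted p 0.0525, and 0.031 without WT 1), with 6 DKO values below all WT values. Of 69 nuclear subunits of oxidative phosphorylation, 67 were lower and 1 fell, with a median difference of -0.18 over the list. The mean was higher in DKO livers for 2.90% of them, against 50.8% of all genes and 37.6% of the genes of like level. At an unadjusted limma p below 0.05 there were 20 (29.0%), against 16.4% of all genes and 22.4% of the genes of like level. The direction of this list under other scalings is not reported here. The single call was lost under 18 of 25 alternatives. The 13 mitochondrially encoded transcripts had a median of -0.20 and 0 were called, 2 of them at an unadjusted p below 0.05.

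**Figure D5:**
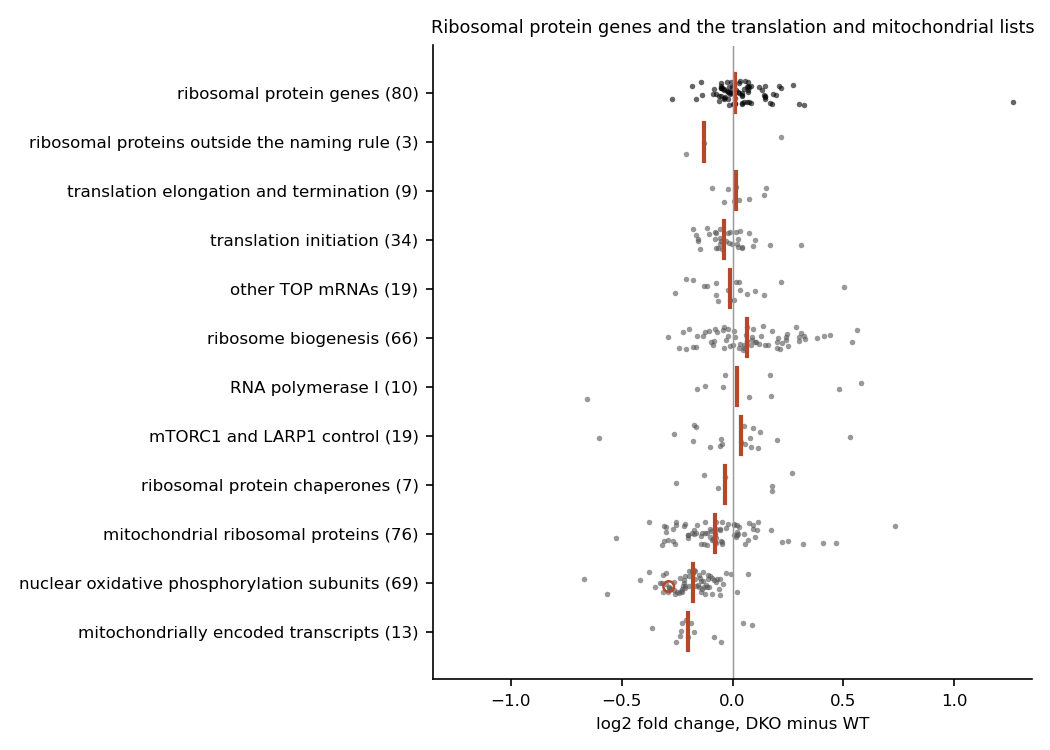
Log2 fold change, DKO minus WT, of each gene of the ribosomal protein set and of 11 related lists, with the number of measured genes in brackets, the median as a red bar and a red ring around the called gene. The 80 ribosomal protein genes lie close to 0 (median 0.01) apart from Rpl29, and the nuclear oxidative phosphorylation list lies mostly below 0 (67 of 69).

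Checks of the libraries bear on these results as follows. Acly had lowest, median and highest values of 4.42, 4.65 and 6.60 log2 CPM in DKO livers and 6.56, 7.51 and 9.35 log2 CPM in WT livers, and Acss2 had 3.59, 4.01 and 5.74 log2 CPM in DKO livers and 6.12, 6.35 and 7.45 log2 CPM in WT livers. Acss2 separated the groups. The Acly value of DKO 1 lay above that of WT 5, and the same library had the highest Acss2 of the DKO livers. Without DKO 1, 0 members were called, 48 were higher in DKO livers and 71 had the smaller SD there. All 15 hepatocyte markers were measured. Their summed level ranged over 16.47 to 16.97 log2 CPM in DKO livers and 16.57 to 16.88 log2 CPM in WT livers, and 1 of them fell (Asgr1). Of these markers 6 were higher and 9 lower in DKO livers. All 13 measured macrophage markers were higher in DKO livers and at an unadjusted limma p below 0.05, with a median difference of 0.64, and 3 rose (Gpnmb, Ccr2 and Lyz2). Their summed level was 8.92 to 9.62 log2 CPM in DKO livers and 8.45 to 9.38 log2 CPM in WT livers. In the remaining lists 1 of 5 lymphocyte genes (Ighm) and 2 of 5 cholangiocyte genes (Spp1 and Cd24a) rose, where 1.74% of all genes were called. Of the lymphocyte genes 3 were higher and 2 lower in DKO livers, and of the cholangiocyte genes 4 were higher and 1 lower. The summed lymphocyte level was 3.34 to 7.07 log2 CPM in DKO livers and 3.04 to 3.54 log2 CPM in WT livers. None was called among 9 endothelial, 10 stellate, 5 red cell, 8 proliferation, 1 neutrophil and 1 exocrine pancreas gene, of which 5, 7, 1, 2, 1 and 1 were at an unadjusted limma p below 0.05. Of all genes 16.4% were. The endothelial, stellate and red cell genes were all higher in DKO livers, as were the neutrophil and the exocrine pancreas gene. Of the proliferation genes 6 were higher and 2 lower. Markers of other cells thus differed between the groups, and their part in the members' values was not tested.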

How the data were processed

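The table deposited by the authors holds log2 CPM of polyadenylated RNA for 6 DKO and 6 WT livers, filtered and normalized between libraries, per the file name. Listed without roles in the submitters' processing notes are kallisto 0.46.2, edgeR, limma and build GRCm39. Neither the filter nor the added count is stated, and depths are unknown, so precision rests on the spread between libraries. On the linear scale a library's CPM added up to 906047 at least and 1088119 at most. Of 12285 rows, 1 without a name (0.0075% to 0.0148% of CPM) was left out. Libraries of a group correlated at a mean r of 0.945 to 0.965 and none was a duplicate. Groups come from the genotype labels. Nothing states whether mice shared litters or days.

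All 12284 genes were fitted together with limma 3.58.1 in R 4.3.3 (mean trend, 2-sided, Benjamini-Hochberg), tested on simulated data, and called at an adjusted p below 0.05. Standard errors and 95% intervals are limma's. The members and lists were chosen with earlier results of these data known. The members named are those with the 6 largest differences each way, the 3 highest and lowest levels, the 4 largest and smallest SDs, and a set of well-known members. In each list the called genes, or the one with the smallest p, are named, plus fixed pathway genes. Some genes that this rule names are not reported here. Gm8210, Gm13841, Gm15500, Gm10275, Gm7536 and Rpl10-ps3 were chosen after their values were seen. Shared stretches and coding lengths come from the GENCODE annotation of GRCm38, and start sequences from RefSeq (GRCm38.p6). Of 11 snoRNA host genes, 0 had rows here and they were not analysed here. Alternatives were other scalings, filters, a pseudocount, limma settings, an exact permutation test, a replicate block and leaving out libraries. Summing copies and leaving out WT 1 and WT 3 together were added after seeing the data. Plots were made in Python 3.11.15 with matplotlib 3.10.9.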

Additional observations from a re-analysis of the deposited data

Results flagged for a closer look

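In 9 of 140 sets of 6 libraries, 1 library stood apart from the other 5 by Dixon's test at 95%, and chance flags about 1 in 20 such sets. Of these sets 80 belong to members, and 8 of the 80 were flagged. Members share libraries, so their flags are not independent. The value of Rpl29 in DKO 6 was 6.39 log2 CPM, where the other DKO livers had 7.04 to 7.30. In WT 2 Rpl29 was 0.723 log2 CPM, where the other WT livers had 6.29 to 7.20. In both libraries the copies Gm8210 and Gm13841 were above the table's lowest value. Summed with its copies, Rpl29 was still the lowest of its group in each, at 6.74 log2 CPM in DKO 6 and 5.53 log2 CPM in WT 2.

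Among the other members, Rps2 in DKO 1 was 9.12 log2 CPM (others 8.87 to 8.94), Rpl6 in DKO 4 was 7.92 (others 8.00 to 8.02) and Rpl23a in DKO 3 was 6.86 (others 7.08 to 7.21). Rps6 in WT 1 was 8.45 log2 CPM (others 7.90 to 8.03), Rpl22l1 in WT 3 was 3.27 (others 3.67 to 3.88) and Rps4l in WT 3 was 2.19 (others 2.71 to 2.96). WT 1 and WT 3 were the libraries with the highest and lowest members in general. Mrpl38, a mitochondrial ribosomal protein, was 5.47 log2 CPM in DKO 1 (others 5.62 to 5.68).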

How the results depend on the processing

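Of the members, 0 were called under each of 25 alternatives, and the lowest adjusted p for a named member was 0.064 (Rps7, library sums without the members). The exact permutation test is 1 of the 25. It called 0 genes of the whole table, so every call is lost under it. The median difference of the members ran from -0.03 to 0.10 and the difference in their share of CPM from 0.0499 to 0.0997 percentage points. The count of all genes called was 109 after quantile normalization, 138 without limma's mean trend, 356 with array weights and 92 to 373 when 1 library was left out. The count of members higher in DKO was 71 after quantile normalization, 72 with library sums without the members and 27 to 66 when 1 library was left out. The count with a smaller SD in DKO was 41 with library sums without the members, 37 without WT 1 and WT 3, and 58 to 72 when 1 library was left out. After quantile normalization the sign turned, uncalled, for 13 of 68 named genes, of which Rpl6 (0.14), Rpl17 (0.0907), Rpl11 (0.0788) and Eef2 (0.19) then exceeded their standard error, and with library sums without the members for 13. The causes were not tested.

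Nothing states whether replicate numbers pair the samples, and the values do not settle it. Deviations of same-numbered libraries correlated at -0.077 to 0.287, over 0.1 for 2 of 6 numbers, and 3 of 6 libraries correlated best with their own number. With the replicate block 397 genes were called, against 214 without it, and 0 of the 397 were members. Of the calls named among other genes, Asgr1 was lost in 15 of 25 alternatives, Lyz2 in 11 and Ighm in 14, Ccr2 in 7 of 23, Cd24a in 11 of 23, Spp1 in 3 of 25, and Gpnmb in 1 of 23. Each of these counts includes the exact permutation test, under which 0 genes were called. Hnrnpa1 was called with array weights (adjusted p 0.034), Heatr1 with the block (0.038) and Mrpl38 in 6 of 25. Limits: depth is unknown, members that share sequence with copies are uncertain, and 1 time point in whole liver was measured.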
